A study of Mus musculus with 12 samples.

Results

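Mouse germinal-vesicle (GV) oocytes that already lacked mitofusin 2 were compared here according to whether they also lacked mitofusin 1. The comparison takes 6 of the 12 libraries of the series, 3 of Mfn1&2-/- oocytes and 3 of Mfn2-/- oocytes, chosen by genotype label, and reads all 11385 genes of the count table in them. Mfn1&2-/- oocytes lack both genes and Mfn2-/- oocytes lack Mfn2, so loss of Mfn2 is shared by both groups and no WT library enters the comparison. The other 6 libraries, 3 of Mfn1-/- and 3 of WT oocytes, serve only to set the effect of Mfn1 loss without Mfn2 beside its effect with Mfn2. Each library was made from total RNA of a pool of 50 GV oocytes, which are arrested in meiotic prophase. The donors were unprimed mice of 21 to 23 days labelled C57BL/6J, and the surrounding cumulus cells had been stripped off by pipetting. The labels do not say how or in which cells the alleles were deleted. Separate animals or litters behind the pools of a genotype are not named either, so p-values measure the spread between pools, which may be technical. The genotype of 1 Mfn2-/- pool is spelled "Mn2-/-" and was read from its description. In pools, fewer oocytes with a transcript and less transcript per oocyte cannot be told apart.

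Mitofusins 1 and 2 are large GTPases of the outer mitochondrial membrane that tether neighbouring mitochondria and fuse them. Either protein can support fusion in many cell types, and mitofusin 2 is also found at contacts between mitochondria and the endoplasmic reticulum (ER). Growing oocytes store RNA for later use and become largely silent in transcription when full grown.

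The 6 libraries held 11575357 to 15464250 counts, and the limit used for a transcript without counts, 3 counts, was 0.197 to 0.253 CPM (counts brought to a common library size with TMM factors). Libraries of a group correlated across genes at 0.97 to 0.985 and libraries of different groups at 0.957 to 0.968. The oocyte list, of growth factors, zona proteins and oocyte regulators, summed to 16840 to 18000 CPM in Mfn1&2-/- pools and 18530 to 19630 CPM in Mfn2-/- pools. These sums did not overlap. The targeted gene was checked first. Mfn1 (chromosome 3, 32529465 to 32579239) stood at 26.4, 19.1 and 14.8 CPM in Mfn1&2-/- pools, against 245, 217 and 228 CPM in Mfn2-/- pools. The groups did not overlap, with a log2 fold change of -3.53 ± 0.18 (adjusted p = 5.98e-06), and the level that was left was 8.74% of that in Mfn2-/- pools. Mfn2 (chromosome 4, 147873599 to 147904704), which both groups lack, stood at 12.3, 10.1 and 9.99 CPM in Mfn1&2-/- pools, against 9.19, 10.8 and 13.5 CPM in Mfn2-/- pools. Its levels overlapped between the groups (-0.06 ± 0.24, adjusted p = 0.904), whereas with Mfn2 intact it averaged 66.5 ± 3.73 CPM in Mfn1-/- pools and 76.3 ± 9.75 CPM in WT pools (SD, n = 3). The labels do not give which exons the alleles lack, and counts per gene may include transcript from the parts that remain.

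Mfn1&2-/- and Mfn2-/- oocytes differed in 1082 of 11342 genes tested (9.54%), 635 higher and 447 lower in Mfn1&2-/- oocytes (adjusted p below 0.05 by edgeR's quasi-likelihood test with Benjamini-Hochberg adjustment). Most changes were moderate: 848 (78.4%) lay within 2-fold, and the median size among called genes was 0.63 on the log2 scale, against a median log2 fold change of -0.02 over all genes tested. More than 4-fold changes numbered 30 higher and 27 lower, and more than 8-fold changes 15 higher and 14 lower. Groups did not overlap in 634 of the 635 genes called higher and 443 of the 447 called lower. Over all genes tested, 16.1% were higher and 15.5% lower without overlap. Calls and overlap use the same values, so the lack of overlap adds no separate support to the calls. Leaving out Mfn1&2-/- replicate 2 gave 558 calls, and leaving out Mfn1&2-/- replicate 3 gave 715. Leaving out Mfn2-/- replicate 2 gave 498, and leaving out Mfn2-/- replicate 3 gave 485. In what follows, a value with ± beside an adjusted p is a log2 fold change of Mfn1&2-/- over Mfn2-/- oocytes with its approximate standard error, unless it is named otherwise. The 58.7% of calls that were higher became 48.8% when libraries were scaled by total count alone.

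**Figure D1:**
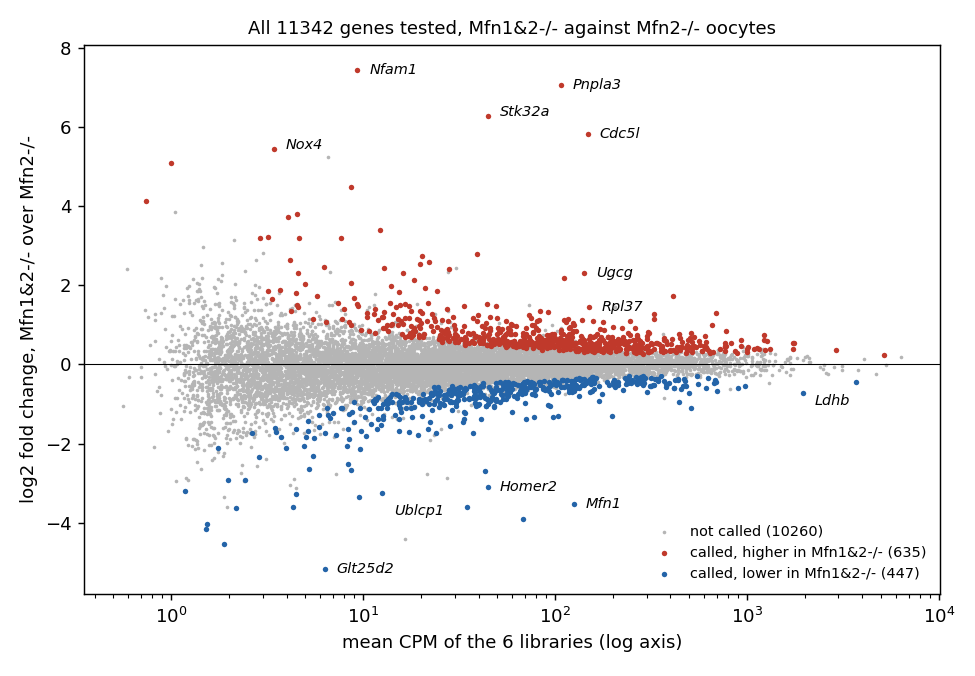
Mean CPM of the 6 libraries (log axis) against the log2 fold change of Mfn1&2-/- over Mfn2-/- oocytes for the 11342 genes tested. Red points are the 635 genes called higher, blue points the 447 called lower and grey points those not called; Nfam1, Pnpla3, Stk32a and Cdc5l stand at the top, and Glt25d2, Ublcp1, Mfn1 and Homer2 among the lowest.

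Several genes with the largest increases were nearly silent in Mfn2-/- oocytes. Cdc5l, a core component of the spliceosome-associated Prp19 complex (chromosome 17, 45391884 to 45433737), stood at 336, 272 and 270.1 CPM in Mfn1&2-/- pools, against 6.46, 3.24 and 5.49 CPM in Mfn2-/- pools. Every Mfn1&2-/- pool lay far above every Mfn2-/- pool, with a log2 fold change of 5.82 ± 0.21 (adjusted p = 2.56e-07). Pnpla3, a lipid-droplet acyl hydrolase (chromosome 15, 84167837 to 84187236), stood at 190.3, 300.4 and 148 CPM in Mfn1&2-/- pools, against 2.13, 0.415 and 2.01 CPM in Mfn2-/- pools, again without overlap and with a log2 fold change of 7.06 ± 0.40 (adjusted p = 1.03e-05). Annotated genes on both strands overlap Pnpla3, and genes on the opposite strand overlap Cdc5l, Homer2, Glt25d2 and Ublcp1. The use of strand in counting was not given, so reads of these genes cannot be told apart. Stk32a, a serine/threonine kinase (chromosome 18, 43207583 to 43318682), stood at 91, 85.6 and 90.5 CPM in Mfn1&2-/- pools, against 2.26, 0.166 and 0.803 CPM in Mfn2-/- pools. The Mfn1&2-/- values lay close together, and the difference was 6.28 ± 0.43, adjusted p = 2.76e-05. All 3 of these genes were also low in oocytes with Mfn2: Cdc5l averaged 2.71 ± 1.05 CPM in Mfn1-/- pools and 3.57 ± 1.92 CPM in WT pools, Pnpla3 1.02 ± 0.503 CPM in Mfn1-/- pools and 0.856 ± 0.637 CPM in WT pools and Stk32a 0.175 ± 0.304 CPM in Mfn1-/- pools and 1.11 ± 0.579 CPM in WT pools (SD, n = 3).

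Nfam1, an ITAM-bearing receptor known from B cells (chromosome 15, 82992973 to 83033306), was the only gene called higher with at most 3 counts in every Mfn2-/- library and a mean of at least 5 CPM in Mfn1&2-/- libraries. It stood at 8.76, 28.1 and 19 CPM in Mfn1&2-/- pools, against 0.0666, 0.249 and 0 CPM in Mfn2-/- pools, a fitted log2 fold change of 7.46 ± 0.71, adjusted p = 0.000282. The Mfn2-/- libraries held 4 counts of it in all, so the size of the fitted fold depends on few reads. Nfam1 lies 1.13 Mb from Pnpla3, and 2 of the 15 genes tested between them were called, beside 9.54% of all genes. Nox4, an NADPH oxidase that makes hydrogen peroxide, stood at 3.12, 13.2 and 3.86 CPM in Mfn1&2-/- pools, against 0, 0.166 and 0.268 CPM in Mfn2-/- pools (5.46 ± 0.89, adjusted p = 0.00503). Mll1 (Kmt2a), a histone H3 lysine methyltransferase, stood at 5.64, 27.6 and 33.8 CPM in Mfn1&2-/- pools, against 2.06, 2.08 and 2.14 CPM in Mfn2-/- pools (3.40 ± 0.55, adjusted p = 0.00482), and was not called by limma-voom (adjusted p = 0.0689). In Nox4 and Mll1 the Mfn1&2-/- pools lay above all Mfn2-/- pools but differed several-fold among themselves. Mll1 averaged 48.9 ± 40.3 CPM in Mfn1-/- pools and 34.7 ± 8.9 CPM in WT pools (SD, n = 3), and the Mfn2-/- pools were thus the lowest group.

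Zfp619, a zinc finger gene, Gdpd3, a lysophospholipase D, and Abcc9, a regulatory subunit of ATP-sensitive potassium channels, were also called higher and did not overlap. Zfp619 averaged 13.9 ± 4.74 CPM in Mfn1&2-/- pools and 1.52 ± 0.918 CPM in Mfn2-/- pools, Gdpd3 7.58 ± 0.769 CPM in Mfn1&2-/- pools and 0.578 ± 0.472 CPM in Mfn2-/- pools and Abcc9 5.24 ± 2.81 CPM in Mfn1&2-/- pools and 0.561 ± 0.162 CPM in Mfn2-/- pools (SD, n = 3). Their log2 fold changes were 3.19 ± 0.47, adjusted p = 0.00331 for Zfp619, 3.72 ± 0.63, adjusted p = 0.00633 for Gdpd3 and 3.21 ± 0.61, adjusted p = 0.0105 for Abcc9. H2-Aa, a class II histocompatibility chain, averaged 5.83 ± 2.39 CPM in Mfn1&2-/- pools and 0.601 ± 0.524 CPM in Mfn2-/- pools (3.23 ± 0.65, adjusted p = 0.0132). Its call was lost without Mfn2-/- replicate 2 (adjusted p = 0.053). Tnc, an extracellular matrix glycoprotein, stood at 54.9, 72.8 and 78 CPM in Mfn1&2-/- pools, against 0.466, 12.7 and 16.2 CPM in Mfn2-/- pools. The lowest Mfn2-/- pool was far under the other two, and the log2 fold change of Tnc was 2.81 ± 0.68, adjusted p = 0.0279. The call on Tnc was lost without Mfn1&2-/- replicate 2 (adjusted p = 0.0785), Mfn1&2-/- replicate 3 (adjusted p = 0.0768) or Mfn2-/- replicate 2 (adjusted p = 0.0686), and under DESeq2 (adjusted p = 0.074). Prps2, which makes phosphoribosyl pyrophosphate, stood at 2.36, 1.18 and 21.8 CPM in Mfn1&2-/- pools, against 0.533, 0.996 and 0.268 CPM in Mfn2-/- pools, and its difference rested on 1 pool: the log2 fold change was 3.82 ± 1.03, adjusted p = 0.0427. The call on Prps2 was lost without Mfn1&2-/- replicate 3 (adjusted p = 0.304), Mfn2-/- replicate 1 (adjusted p = 0.109), Mfn2-/- replicate 2 (adjusted p = 0.0895) or Mfn2-/- replicate 3 (adjusted p = 0.144). It was also lost under limma-voom (adjusted p = 0.253) and with a block for replicate number (adjusted p = 0.0992).

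Ugcg, the enzyme that makes glucosylceramide from ceramide, combined a high level with a large change. It stood at 242, 229 and 238 CPM in Mfn1&2-/- pools, against 36.5, 55.8 and 48.9 CPM in Mfn2-/- pools, with a log2 fold change of 2.32 ± 0.14 (adjusted p = 1.53e-05). The 3 Mfn1&2-/- values lay within a narrow band far above all Mfn2-/- values, and Ugcg averaged 61.4 ± 8.77 CPM in Mfn1-/- pools and 88 ± 49.4 CPM in WT pools (SD, n = 3).

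The annotated promoters of 3 genes that were called higher and of 1 that was called lower are shown because these genes had large changes without overlap between the groups and a single RefSeq start each. The sequences are from RefSeq on GRCm38.p6 and run from 250 bases before to 50 bases after the start, on the strand of the gene. Capitals mark matches to a GC box (GGGCGG) or a CCAAT box (CCAAT) on either strand. A TATA box (TATAAA) was also searched on both strands and had no match in these windows.
Pnpla3 (chr15:84167566-84167865, plus strand): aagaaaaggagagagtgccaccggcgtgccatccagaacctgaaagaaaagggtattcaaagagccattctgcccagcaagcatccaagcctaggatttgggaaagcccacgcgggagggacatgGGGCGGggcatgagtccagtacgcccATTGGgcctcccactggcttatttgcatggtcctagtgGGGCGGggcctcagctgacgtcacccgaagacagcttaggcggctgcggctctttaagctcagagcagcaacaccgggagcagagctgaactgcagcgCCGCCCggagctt
Cdc5l (chr17:45433658-45433957, minus strand): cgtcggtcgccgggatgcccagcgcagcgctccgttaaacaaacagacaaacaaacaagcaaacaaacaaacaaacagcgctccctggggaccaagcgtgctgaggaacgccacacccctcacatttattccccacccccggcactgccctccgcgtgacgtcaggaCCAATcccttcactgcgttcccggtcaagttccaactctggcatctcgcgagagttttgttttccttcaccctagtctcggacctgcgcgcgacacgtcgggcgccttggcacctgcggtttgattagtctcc
Ugcg (chr4:59189300-59189599, plus strand): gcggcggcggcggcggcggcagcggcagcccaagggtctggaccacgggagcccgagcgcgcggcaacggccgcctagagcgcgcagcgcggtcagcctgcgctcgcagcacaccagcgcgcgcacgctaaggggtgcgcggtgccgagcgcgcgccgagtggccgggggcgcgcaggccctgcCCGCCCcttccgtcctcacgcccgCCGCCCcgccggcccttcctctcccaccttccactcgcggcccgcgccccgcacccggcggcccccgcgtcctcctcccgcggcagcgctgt
Ublcp1 (chr11:44470499-44470798, minus strand): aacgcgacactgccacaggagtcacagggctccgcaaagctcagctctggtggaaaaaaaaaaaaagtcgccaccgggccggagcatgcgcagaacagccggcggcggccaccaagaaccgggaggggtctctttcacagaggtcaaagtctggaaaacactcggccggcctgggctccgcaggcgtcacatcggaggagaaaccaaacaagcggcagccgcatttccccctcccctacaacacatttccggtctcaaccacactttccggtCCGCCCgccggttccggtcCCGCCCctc
The Pnpla3 window holds 3 GC boxes and 1 CCAAT box, the Cdc5l window 1 CCAAT box, and the Ugcg and Ublcp1 windows 2 GC boxes each. Of 32851 mouse promoters of the same length, 35.7% hold a GC box, 37.4% a CCAAT box and 13.6% a TATA box, so these motifs are common. Gene counts do not show which start a transcript used.

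The largest decreases reached genes that Mfn2-/- oocytes held at moderate levels. Homer2, a scaffold protein that binds glutamate receptors and calcium channels (chromosome 7, 81600481 to 81707527), stood at 10.3, 8.02 and 10.1 CPM in Mfn1&2-/- pools, against 77.7, 95.4 and 67.5 CPM in Mfn2-/- pools. All Mfn1&2-/- pools lay far below all Mfn2-/- pools, with a log2 fold change of -3.09 ± 0.18 (adjusted p = 1.22e-05). In oocytes with Mfn2, Homer2 stood at 76.1, 80.3 and 49.5 CPM in Mfn1-/- pools and 17.6, 77.3 and 46.7 CPM in WT pools, which spread over a wide range. Its neighbour Fam103a1 fell as well (-1.69 ± 0.21, adjusted p = 0.0016), a gene named after its values were seen. Of 13 genes tested within 500 kb of Homer2, 2 were called, and of 243 such neighbours of the 24 genes with the largest changes, 22 were called (9.05%), a share near the 9.54% of all genes. Ublcp1, a phosphatase of nuclear proteasomes (chromosome 11, 44454571 to 44470498), stood at 4.12, 4.21 and 7.57 CPM in Mfn1&2-/- pools, against 86.6, 57.6 and 48.6 CPM in Mfn2-/- pools. The groups were far apart, with a log2 fold change of -3.61 ± 0.29 (adjusted p = 0.000102). Ublcp1 stood at 64.4, 59 and 46.7 CPM in Mfn1-/- pools and 58.8, 27.2 and 6.26 CPM in WT pools, and the lowest WT pool lay within the Mfn1&2-/- range. Glt25d2 (Colgalt2), a collagen galactosyltransferase (chromosome 1, 152399830 to 152510695), stood at 0.842, 0.132 and 0.0757 CPM in Mfn1&2-/- pools, against 12.9, 12.7 and 11.2 CPM in Mfn2-/- pools. Its Mfn1&2-/- values were all below 1 CPM, with a log2 fold change of -5.18 ± 0.61 (adjusted p = 0.00116), and it averaged 18 ± 2.8 CPM in Mfn1-/- pools and 16.9 ± 2.91 CPM in WT pools (SD, n = 3).

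Sec16b, which organises ER exit sites, stood at 1.35, 0.526 and 3.25 CPM in Mfn1&2-/- pools, against 14.9, 19.3 and 18 CPM in Mfn2-/- pools (-3.36 ± 0.50, adjusted p = 0.00331). Adcy1, a calmodulin-stimulated adenylyl cyclase, stood at 4.29, 12.7 and 17.7 CPM in Mfn1&2-/- pools, against 64.1, 83.5 and 78.5 CPM in Mfn2-/- pools (-2.71 ± 0.37, adjusted p = 0.00245). Neither gene overlapped between the groups, and Adcy1 stood at 74, 65.1 and 41.6 CPM in Mfn1-/- pools and 76.2, 52 and 2.67 CPM in WT pools, so that 1 WT pool lay below all Mfn1&2-/- pools. The zinc finger gene Ovol1 averaged 1.44 ± 0.574 CPM in Mfn1&2-/- pools and 9.08 ± 1.4 CPM in Mfn2-/- pools (-2.65 ± 0.40, adjusted p = 0.00372). Zfp97, another zinc finger gene, averaged 1.83 ± 0.343 CPM in Mfn1&2-/- pools and 9.13 ± 2.89 CPM in Mfn2-/- pools (-2.32 ± 0.38, adjusted p = 0.00529). Psmb5, a catalytic subunit of the proteasome, averaged 1.5 ± 0.251 CPM in Mfn1&2-/- pools and 6.45 ± 3.26 CPM in Mfn2-/- pools (-2.10 ± 0.47, adjusted p = 0.0195). Its call was lost without Mfn1&2-/- replicate 2 (adjusted p = 0.0525), Mfn1&2-/- replicate 3 (adjusted p = 0.0579) or Mfn2-/- replicate 2 (adjusted p = 0.117). Nlrp5-ps, a pseudogene that may share reads with other Nlrp copies, averaged 2.33 ± 1.59 CPM in Mfn1&2-/- pools and 14.9 ± 6.83 CPM in Mfn2-/- pools (-2.67 ± 0.51, adjusted p = 0.0106), and was lost without Mfn2-/- replicate 2 (adjusted p = 0.0513). Adssl1, an enzyme of AMP synthesis, averaged 0.856 ± 0.755 CPM in Mfn1&2-/- pools and 8.13 ± 2.54 CPM in Mfn2-/- pools (-3.28 ± 0.79, adjusted p = 0.0269), and was lost without Mfn1&2-/- replicate 3 (adjusted p = 0.0599), Mfn2-/- replicate 2 (adjusted p = 0.089) or Mfn2-/- replicate 3 (adjusted p = 0.0991), and under DESeq2 (adjusted p = 0.0613). Ank1, a membrane skeleton adaptor, averaged 1.91 ± 0.499 CPM in Mfn1&2-/- pools and 8.01 ± 6.07 CPM in Mfn2-/- pools (-2.07 ± 0.56, adjusted p = 0.0417). The call on Ank1 was lost without Mfn1&2-/- replicate 1 (adjusted p = 0.0689), Mfn1&2-/- replicate 2 (adjusted p = 0.0892) or Mfn1&2-/- replicate 3 (adjusted p = 0.12). It was also lost without Mfn2-/- replicate 1 (adjusted p = 0.065) or Mfn2-/- replicate 3 (adjusted p = 0.237). Both limma-voom (adjusted p = 0.121) and a block for replicate number (adjusted p = 0.0713) ended it too.

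**Figure D2:**
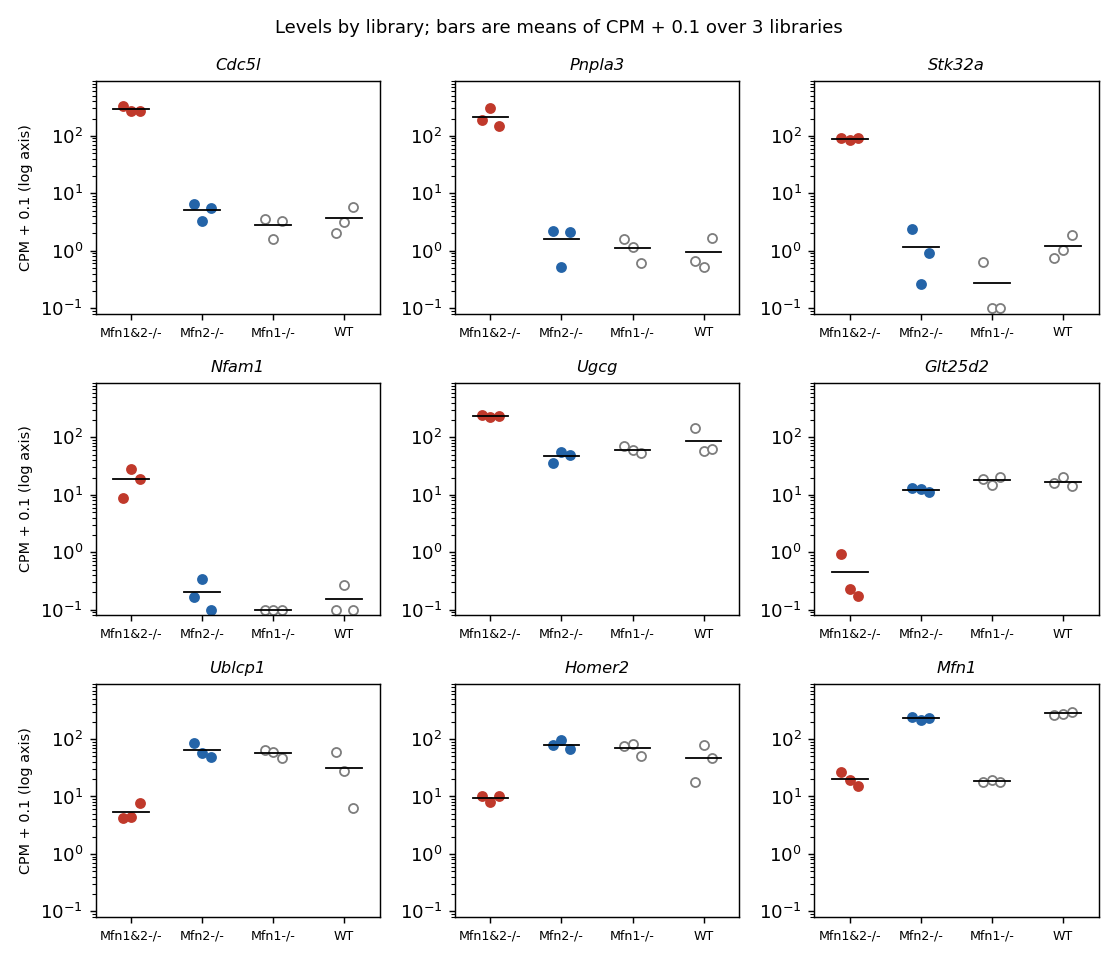
CPM + 0.1 (log axis) of 9 genes in each library, with Mfn1&2-/- in red, Mfn2-/- in blue and the Mfn1-/- and WT pools in open circles; bars are means over 3 libraries. Cdc5l, Pnpla3, Stk32a and Nfam1 are high in Mfn1&2-/- pools alone of the 4 groups, Glt25d2 and Ublcp1 have lower means there than in any other group although 1 WT pool of Ublcp1 lies in the same range, and Mfn1 is low in both groups without Mfn1.

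Among the most abundant transcripts the changes were small. Ldhb, the heart-type lactate dehydrogenase subunit and a major oocyte enzyme, stood at 1568, 1426 and 1449 CPM in Mfn1&2-/- pools, against 2454, 2532 and 2307 CPM in Mfn2-/- pools, with a log2 fold change of -0.72 ± 0.08 (adjusted p = 0.000579). The groups did not overlap, and Ldhb averaged 1480 ± 83.5 CPM in Mfn1-/- pools and 1612 ± 218 CPM in WT pools (SD, n = 3). Stt3b, a catalytic subunit of the oligosaccharyltransferase, stood at 655, 763 and 742 CPM in Mfn1&2-/- pools, against 1156, 1056 and 1045 CPM in Mfn2-/- pools (-0.60 ± 0.09, adjusted p = 0.00296). Oog3, an oocyte-specific leucine-rich repeat gene with close paralogs, stood at 749.6, 831 and 817 CPM in Mfn1&2-/- pools, against 1201, 1140 and 1150 CPM in Mfn2-/- pools (-0.55 ± 0.08, adjusted p = 0.00265). Both were lower without overlap. Txnip, an inhibitor of thioredoxin, averaged 545 ± 47.7 CPM in Mfn1&2-/- pools and 858 ± 86.8 CPM in Mfn2-/- pools (-0.66 ± 0.10, adjusted p = 0.00331). Bub1b, a kinase of the spindle checkpoint that also sustains prophase arrest in mouse oocytes, stood at 2126, 2131 and 1984 CPM in Mfn1&2-/- pools, against 1546, 1244 and 1464 CPM in Mfn2-/- pools and was higher, 0.54 ± 0.09, adjusted p = 0.00606. Hsp90aa1, a cytosolic chaperone, and Tubb4b, a beta tubulin, were called higher at 0.39 ± 0.10, adjusted p = 0.0374 for Hsp90aa1 and 0.38 ± 0.08, adjusted p = 0.0152 for Tubb4b. The call on Hsp90aa1 was lost without Mfn1&2-/- replicate 1 (adjusted p = 0.0644), Mfn1&2-/- replicate 2 (adjusted p = 0.141), Mfn2-/- replicate 2 (adjusted p = 0.0965) or Mfn2-/- replicate 3 (adjusted p = 0.146), and that on Tubb4b without Mfn1&2-/- replicate 2 (adjusted p = 0.0644) or Mfn1&2-/- replicate 3 (adjusted p = 0.0507).

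Gene lists held 825 distinct genes that were tested, of which 107 were called (13%, 65 higher and 42 lower), against 9.54% of all genes. Without Mfn1&2-/- replicate 2, Mfn2-/- replicate 2 or Mfn2-/- replicate 3 these counts were 64, 56 and 60. The lists and their calls are compared with the shares of all genes, 5.6% higher and 3.94% lower, in the plot of called members by list.

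**Figure D3:**
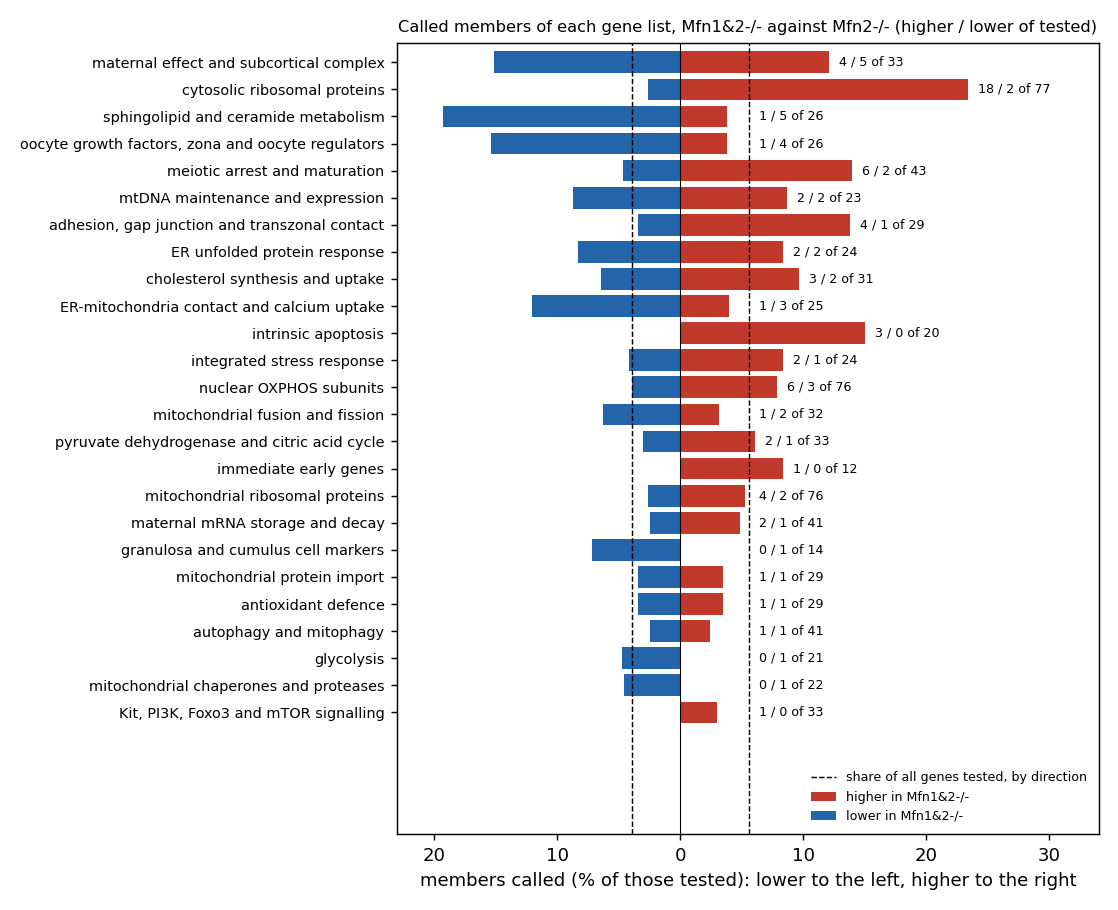
Members of each gene list with at least 10 tested genes that were called higher (red, to the right) or lower (blue, to the left) in Mfn1&2-/- over Mfn2-/- oocytes, as a percentage of the members tested. Dashed lines are the shares of all genes tested, 5.6% higher and 3.94% lower, and the text gives the counts; cytosolic ribosomal proteins reach 18 higher of 77.

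Transcripts of cytosolic ribosomal proteins were higher in Mfn1&2-/- oocytes more often than lower: 18 of 77 were called higher and 2 lower, 26% in all, with a median log2 fold change of 0.22. The large subunit held 14 of the genes called higher and both called lower of 46 tested, and the small subunit 4 called higher of 31. Rpl37, of the large subunit (chromosome 15, 5116645 to 5119140), stood at 230.5, 207 and 229 CPM in Mfn1&2-/- pools, against 78.2, 78.4 and 84.8 CPM in Mfn2-/- pools. The groups were well apart (1.45 ± 0.09, adjusted p = 1.53e-05), and Rpl37 averaged 208 ± 23.7 CPM in Mfn1-/- pools and 248 ± 46.1 CPM in WT pools (SD, n = 3). Rpl28 stood at 78.1, 71.3 and 68.9 CPM in Mfn1&2-/- pools, against 24.3, 26.8 and 27.2 CPM in Mfn2-/- pools (1.47 ± 0.13, adjusted p = 0.00018). Rpl12 stood at 39.3, 37.9 and 42.5 CPM in Mfn1&2-/- pools, against 15.2, 15.4 and 14.6 CPM in Mfn2-/- pools (1.39 ± 0.15, adjusted p = 0.000724). Neither overlapped. Averages of Rpl28 were 62.5 ± 18.4 CPM in Mfn1-/- pools and 80.7 ± 12.9 CPM in WT pools, and those of Rpl12 34.7 ± 1.73 CPM in Mfn1-/- pools and 40.9 ± 5.39 CPM in WT pools (SD, n = 3). For all 3 genes the Mfn2-/- pools were thus the lowest of the 4 groups. The 2 genes called lower, Rpl10 and Rpl3, had log2 fold changes of -0.63 ± 0.13, adjusted p = 0.0132 for Rpl10 and -0.75 ± 0.17, adjusted p = 0.0237 for Rpl3; the call on Rpl3 was lost without Mfn1&2-/- replicate 2 or any 1 of the Mfn2-/- libraries (adjusted p up to 0.0902). Ribosomal protein genes have many processed pseudogenes, and the counting of reads with several matches was not given in the sources used here. Without Mfn2-/- replicate 2 the list held 11 genes called higher and 1 lower, and without Mfn2-/- replicate 3 it held 9 and 1. Leaving out any other single library gave 13 to 17 higher and 1 to 3 lower. Of 76 mitochondrial ribosomal protein genes 4 were called higher and 2 lower (7.89%, median 0.06). The counts were 6 and 4 when Mfn1&2-/- replicate 1 was left out, 3 and 0 when replicate 2 of either group was, and 2 and 1 when Mfn2-/- replicate 3 was. Mrps21 averaged 11.6 ± 2.31 CPM in Mfn1&2-/- pools and 4.3 ± 0.351 CPM in Mfn2-/- pools (1.41 ± 0.28, adjusted p = 0.0121), and Mrps25 averaged 185 ± 26.9 CPM in Mfn1&2-/- pools and 117 ± 7.7 CPM in Mfn2-/- pools (0.65 ± 0.12, adjusted p = 0.00756).

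**Figure D4:**
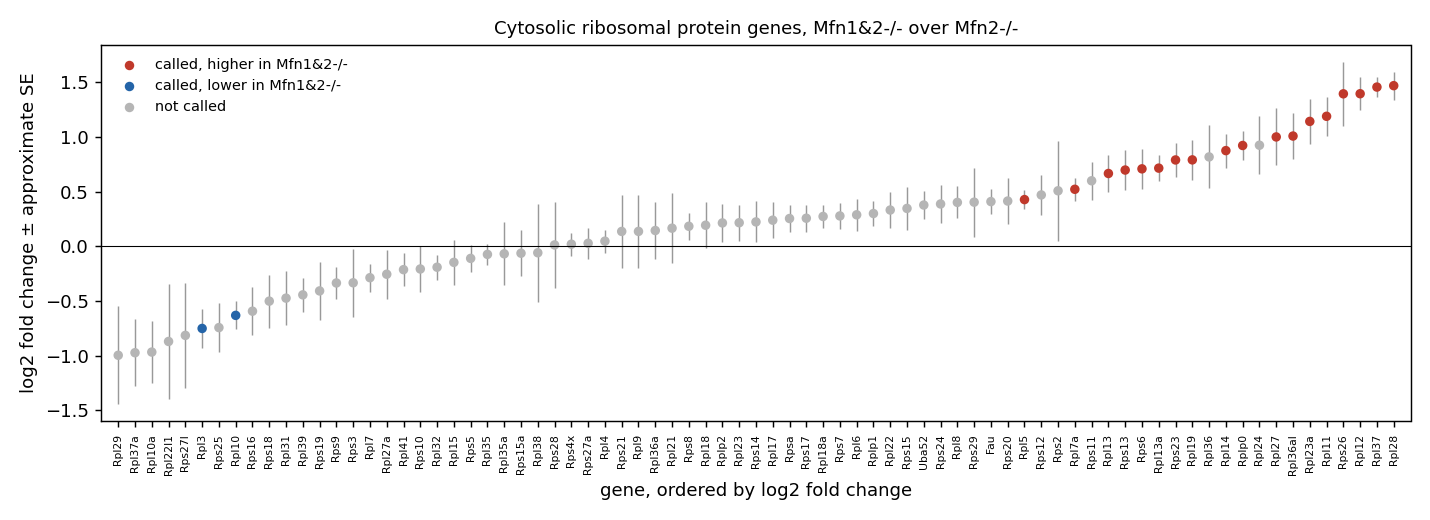
Log2 fold change of Mfn1&2-/- over Mfn2-/- oocytes with its approximate standard error for the 77 cytosolic ribosomal protein genes tested, ordered by fold change. Red points are the 18 called higher, blue points the 2 called lower (Rpl3 and Rpl10), and grey points were not called; Rpl28, Rpl37 and Rpl12 have the 3 largest increases.

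Of 32 tested genes of mitochondrial fusion and fission 1 was called higher and 2 lower, Mfn1 among them (9.38%, median -0.13), a share near the 9.54% of all genes. Dnm2, a dynamin of endocytosis with a described part in fission, stood at 121, 120.4 and 123 CPM in Mfn1&2-/- pools, against 82.4, 79.5 and 78.8 CPM in Mfn2-/- pools (0.59 ± 0.09, adjusted p = 0.00437). Mff, a receptor that recruits the fission dynamin Drp1, averaged 105 ± 4.51 CPM in Mfn1&2-/- pools and 142 ± 11.3 CPM in Mfn2-/- pools (-0.44 ± 0.10, adjusted p = 0.0189), and its call was lost without Mfn1&2-/- replicate 2 (adjusted p = 0.072), Mfn1&2-/- replicate 3 (adjusted p = 0.0619), Mfn2-/- replicate 2 (adjusted p = 0.0824) or Mfn2-/- replicate 3 (adjusted p = 0.0552). Of 25 genes of ER-mitochondria contact and calcium uptake 1 was higher and 3 lower (16%, median -0.06). Ccdc90a (Mcur1), a regulator of the mitochondrial calcium uniporter, stood at 127, 80.7 and 123 CPM in Mfn1&2-/- pools, against 50.4, 52.6 and 50.3 CPM in Mfn2-/- pools (1.10 ± 0.16, adjusted p = 0.00334). Rmdn3 (PTPIP51), a mitochondrial tether to the ER, stood at 33.3, 31.7 and 29.5 CPM in Mfn1&2-/- pools, against 63.2, 51.9 and 60.8 CPM in Mfn2-/- pools (-0.91 ± 0.14, adjusted p = 0.00372). Bcap31, an ER partner of the fission protein Fis1, averaged 29.5 ± 4.65 CPM in Mfn1&2-/- pools and 51.5 ± 3.75 CPM in Mfn2-/- pools (-0.82 ± 0.16, adjusted p = 0.0105). None of these 3 overlapped between the groups.

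Nuclear genes of oxidative phosphorylation gave 6 higher and 3 lower of 76 (11.8%, median -0.02), and 6 higher and 8 lower when libraries were scaled by total count. Leaving out Mfn2-/- replicate 2 gave 2 higher and 0 lower, and Mfn2-/- replicate 3 gave 4 and 0. Omitting Mfn1&2-/- replicate 2 or 3, or Mfn2-/- replicate 1, gave 4 and 1. Complex I had 1 higher and 2 lower of 36, complex II none of 4, complex III with cytochrome c 2 higher and 1 lower of 10, complex IV 1 higher of 11, and the ATP synthase 2 higher of 15. Cox5b, a complex IV subunit, stood at 75.9, 79.8 and 71.5 CPM in Mfn1&2-/- pools, against 32.4, 37.5 and 36.3 CPM in Mfn2-/- pools (1.09 ± 0.12, adjusted p = 0.000933). Atp5b, the catalytic beta subunit of the ATP synthase, stood at 322, 308 and 324 CPM in Mfn1&2-/- pools, against 203, 191 and 229 CPM in Mfn2-/- pools (0.61 ± 0.09, adjusted p = 0.00337). Neither overlapped, and both had means in Mfn1-/- and WT pools nearer to the Mfn1&2-/- level: Cox5b averaged 59.5 ± 6.92 CPM in Mfn1-/- pools and 72.7 ± 7.91 CPM in WT pools, and Atp5b 296 ± 33.4 CPM in Mfn1-/- pools and 309.6 ± 22.1 CPM in WT pools (SD, n = 3). Uqcrb, of complex III, averaged 24.1 ± 2.85 CPM in Mfn1&2-/- pools and 10.6 ± 3.48 CPM in Mfn2-/- pools (1.17 ± 0.25, adjusted p = 0.0172), and was lost without Mfn1&2-/- replicate 3 (adjusted p = 0.0506) or Mfn2-/- replicate 2 (adjusted p = 0.0586). Genes that maintain and express mitochondrial DNA gave 2 higher and 2 lower of 23 (17.4%, median -0.19). Omission of Mfn1&2-/- replicate 1 gave 3 and 4, and Mfn2-/- replicate 2 gave 2 and 0. Lrpprc, which stabilises mitochondrial mRNA, averaged 144 ± 24.9 CPM in Mfn1&2-/- pools and 86.3 ± 3.71 CPM in Mfn2-/- pools (0.73 ± 0.13, adjusted p = 0.00636), a call lost when all 12 libraries were fitted (adjusted p = 0.3). Rnaseh1, needed for replication of mitochondrial DNA, averaged 19.4 ± 2.91 CPM in Mfn1&2-/- pools and 35.2 ± 2.62 CPM in Mfn2-/- pools (-0.86 ± 0.17, adjusted p = 0.0114), and was lost without Mfn2-/- replicate 2 (adjusted p = 0.0535). Mitochondrial chaperones and proteases had 1 call, lower, of 22 (4.55%), and protein import 1 higher and 1 lower of 29 (6.9%). Both lists had 0 calls when replicate 2 of either group was left out; the chaperone call was also lost when replicate 3 of either group was, and protein import then kept 1 call, higher. The table held no transcript encoded by mitochondrial DNA.

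Calls on oocyte and maternal genes went in both directions, and those of the growth factor list were mostly lower. Of 26 growth factor, zona and regulator genes 1 was called higher and 4 lower (19.2%, median -0.17), and 1 and 7 when libraries were scaled by total count. A positive log2 fold change was found for 8 of the 26. Without overlap 1 was higher and 10 were lower, beside 16.1% and 15.5% of all genes. Leaving out Mfn1&2-/- replicate 2 gave 1 and 2, Mfn1&2-/- replicate 3 or Mfn2-/- replicate 1 gave 0 and 3, and Mfn2-/- replicate 2 or 3 gave 0 and 2. Cd9, an egg membrane protein needed for sperm fusion, stood at 21.4, 21.4 and 18.5 CPM in Mfn1&2-/- pools, against 38.8, 53.7 and 51.2 CPM in Mfn2-/- pools (-1.24 ± 0.17, adjusted p = 0.00243). Oog4, an oocyte-specific gene with close paralogs, stood at 256, 337 and 318 CPM in Mfn1&2-/- pools, against 535, 705 and 495 CPM in Mfn2-/- pools (-0.94 ± 0.14, adjusted p = 0.00372). Both were lower without overlap. Of 33 maternal effect and subcortical complex genes 4 were higher and 5 lower (27.3%, median -0.02), beside 4 and 9 with scaling by total count and 5 and 11 under DESeq2. Leaving out Mfn1&2-/- replicate 2 gave 1 higher and 3 lower, Mfn1&2-/- replicate 3 gave 1 and 4, and Mfn2-/- replicate 1 or 2 gave 2 and 2. Padi6, a structural protein of oocyte lattices, stood at 2762, 3355 and 3294 CPM in Mfn1&2-/- pools, against 4389, 4621 and 3778 CPM in Mfn2-/- pools (-0.45 ± 0.10, adjusted p = 0.0198), and its call was lost without Mfn2-/- replicate 1 (adjusted p = 0.0606) or Mfn2-/- replicate 2 (adjusted p = 0.0701). Nlrp2, a member of the subcortical maternal complex, averaged 334 ± 22.2 CPM in Mfn1&2-/- pools and 503 ± 22.6 CPM in Mfn2-/- pools (-0.60 ± 0.08, adjusted p = 0.00265). Dppa3 (Stella), which protects maternal DNA methylation in the zygote, averaged 245 ± 19.5 CPM in Mfn1&2-/- pools and 335 ± 8.19 CPM in Mfn2-/- pools (-0.46 ± 0.09, adjusted p = 0.00927). Nlrp4f, another NLRP family member, averaged 3310 ± 103 CPM in Mfn1&2-/- pools and 2531 ± 229 CPM in Mfn2-/- pools and was higher (0.38 ± 0.08, adjusted p = 0.0186); its call was lost without Mfn1&2-/- replicate 2 (adjusted p = 0.0569) or Mfn1&2-/- replicate 3 (adjusted p = 0.0524). Zar1l, a paralog of the maternal RNA-binding protein Zar1, stood at 375, 199.7 and 219.5 CPM in Mfn1&2-/- pools, against 130.1, 145 and 132 CPM in Mfn2-/- pools (0.95 ± 0.20, adjusted p = 0.015), and was lost without Mfn2-/- replicate 3 (adjusted p = 0.059). Zbed3, a subcortical complex protein and the most abundant gene called, averaged 5648 ± 193 CPM in Mfn1&2-/- pools and 4743 ± 110.2 CPM in Mfn2-/- pools (0.24 ± 0.07, adjusted p = 0.049), and was lost without Mfn1&2-/- replicate 2 (adjusted p = 0.187), Mfn1&2-/- replicate 3 (adjusted p = 0.0907), Mfn2-/- replicate 1 (adjusted p = 0.0602), Mfn2-/- replicate 2 (adjusted p = 0.0954) or Mfn2-/- replicate 3 (adjusted p = 0.177), and under RLE scaling (adjusted p = 0.0562).

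Among 43 genes of meiotic arrest and maturation 6 were higher and 2 lower (18.6%, median -0.04). Leaving out replicate 2 of either group or Mfn2-/- replicate 3 gave 3 and 1, and Mfn2-/- replicate 1 gave 4 and 1. Tpx2, a spindle assembly factor that activates Aurora A, stood at 455, 481 and 405 CPM in Mfn1&2-/- pools, against 302, 276 and 293 CPM in Mfn2-/- pools (0.61 ± 0.09, adjusted p = 0.00322). Mos, the kinase upstream of MAP kinase in maturing oocytes, stood at 122, 122 and 107 CPM in Mfn1&2-/- pools, against 160.4, 161 and 167 CPM in Mfn2-/- pools (-0.49 ± 0.09, adjusted p = 0.00952). Tpx2 was thus higher and Mos lower, each without overlap, and Bub1b above belongs to the same list. Of 41 genes of mRNA storage and decay 2 were higher and 1 lower (7.32%, median -0.01). Eif4e, the cap-binding translation factor, stood at 308, 379.7 and 319 CPM in Mfn1&2-/- pools, against 206, 192 and 208 CPM in Mfn2-/- pools (0.72 ± 0.10, adjusted p = 0.00243). Ythdc1, the nuclear reader of N6-methyladenosine in RNA, stood at 183, 145 and 153 CPM in Mfn1&2-/- pools, against 98.3, 72.7 and 92.8 CPM in Mfn2-/- pools (0.86 ± 0.13, adjusted p = 0.00424). Adhesion, gap junction and transzonal contact genes gave 4 higher and 1 lower of 29 (17.2%, median 0.06), but 2 higher and 3 lower when scaled by total count. Omission of Mfn1&2-/- replicate 1 gave 4 and 4, Mfn1&2-/- replicate 2 or 3 gave 2 and 0, Mfn2-/- replicate 1 or 2 gave 1 and 0, and Mfn2-/- replicate 3 gave 3 and 0. Itga9, an integrin chain, stood at 273, 303 and 262 CPM in Mfn1&2-/- pools, against 176, 165 and 173 CPM in Mfn2-/- pools (0.69 ± 0.09, adjusted p = 0.00172).

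Sphingolipid and ceramide genes had the lowest median of the lists with at least 20 tested genes, -0.27 on the log2 scale, with 1 higher and 5 lower of 26 (23.1%). Ugcg, described above, was the gene called higher. The other 5 act in ceramide synthesis or make sphingomyelin. Degs1, the desaturase of the last step of ceramide synthesis, stood at 92.3, 118 and 106 CPM in Mfn1&2-/- pools, against 172, 145 and 152 CPM in Mfn2-/- pools (-0.58 ± 0.11, adjusted p = 0.0116). Sptlc1, a subunit of the enzyme of the initial step, averaged 107 ± 3.22 CPM in Mfn1&2-/- pools and 143 ± 3.71 CPM in Mfn2-/- pools (-0.43 ± 0.09, adjusted p = 0.0138), and was lost without Mfn1&2-/- replicate 2 (adjusted p = 0.0537) or Mfn2-/- replicate 3 (adjusted p = 0.0616). Kdsr, Sgms1 and Sgms2, named after their values were seen, had log2 fold changes of -0.56 ± 0.14, adjusted p = 0.03 for Kdsr, -0.99 ± 0.26, adjusted p = 0.0407 for Sgms1 and -1.80 ± 0.46, adjusted p = 0.0334 for Sgms2. Each of these 3 calls was lost in 4 or 5 of the 6 fits without 1 library, among them those without Mfn1&2-/- replicate 2, Mfn2-/- replicate 2 and Mfn2-/- replicate 3 (adjusted p up to 0.114 for Kdsr, 0.147 for Sgms1 and 0.112 for Sgms2). The 5 genes called lower became 1 without Mfn2-/- replicate 3 and 2 when replicate 2 of either group was left out. They became 3 when Mfn1&2-/- replicate 3 or Mfn2-/- replicate 1 was left out. Cholesterol genes gave 3 higher and 2 lower of 31 (16.1%, median 0.14), 2 higher and 3 lower when scaled by total count, and 2 higher and 1 lower when Mfn1&2-/- replicate 2 was left out. Idi1, an enzyme of isoprenoid synthesis, stood at 18.8, 23 and 32.2 CPM in Mfn1&2-/- pools, against 9.65, 7.8 and 8.1 CPM in Mfn2-/- pools (1.52 ± 0.24, adjusted p = 0.00438). Npc1, which exports cholesterol from lysosomes, averaged 237 ± 17.4 CPM in Mfn1&2-/- pools and 339 ± 12.1 CPM in Mfn2-/- pools (-0.53 ± 0.09, adjusted p = 0.00487). Soat1, which esterifies cholesterol, averaged 292 ± 31.1 CPM in Mfn1&2-/- pools and 192 ± 11.9 CPM in Mfn2-/- pools (0.59 ± 0.10, adjusted p = 0.0054).

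Genes of the ER unfolded protein response gave 2 higher and 2 lower of 24 (16.7%, median -0.01). The ER lectin chaperones Calr and Canx were higher. Calr stood at 1668, 1369 and 1529 CPM in Mfn1&2-/- pools, against 1039, 1017 and 973 CPM in Mfn2-/- pools (0.58 ± 0.09, adjusted p = 0.00354), and Canx averaged 611 ± 17.3 CPM in Mfn1&2-/- pools and 438 ± 9.21 CPM in Mfn2-/- pools (0.47 ± 0.07, adjusted p = 0.00437). Hspa5 (BiP), the main ER chaperone of the Hsp70 family, stood at 332, 321 and 304 CPM in Mfn1&2-/- pools, against 469.6, 418 and 449 CPM in Mfn2-/- pools and was lower (-0.49 ± 0.08, adjusted p = 0.00594). None of the 3 overlapped between the groups. The integrated stress response list had 2 higher and 1 lower of 24 (12.5%, median 0.15), and 2 higher and 3 lower when scaled by total count. Omitting Mfn1&2-/- replicate 2 gave 1 and 0, Mfn1&2-/- replicate 3 or Mfn2-/- replicate 2 gave 0 and 1, and Mfn2-/- replicate 3 gave 0 calls. Intrinsic apoptosis had 3 higher of 20 (15%, median 0.16), but 0 when Mfn1&2-/- replicate 2 was left out and 1 when Mfn2-/- replicate 3 was. Bcl2l10, an oocyte Bcl-2 family member, averaged 695 ± 50.6 CPM in Mfn1&2-/- pools and 516 ± 28.1 CPM in Mfn2-/- pools (0.42 ± 0.09, adjusted p = 0.0138), a call lost without Mfn1&2-/- replicate 2 (adjusted p = 0.0634). Autophagy and mitophagy had 1 higher and 1 lower of 41 (4.88%), antioxidant defence 1 and 1 of 29 (6.9%), and glycolysis 1 lower of 21 (4.76%), which was Ldhb. Kit, PI3K, Foxo3 and mTOR signalling had 1 higher of 33 (3.03%), Rps6. Its call was lost when Mfn1&2-/- replicate 1 or 3 or any of the Mfn2-/- libraries was left out. Omission of Mfn1&2-/- replicate 3 or any of the Mfn2-/- libraries left autophagy and mitophagy with 0 calls. The immediate early list, which also held the heat shock cochaperone Dnajb1, had 1 gene called higher of 12 (8.33%). That gene was Dnajb1, at 165 ± 11 CPM in Mfn1&2-/- pools and 91.8 ± 4.12 CPM in Mfn2-/- pools (0.84 ± 0.09, adjusted p = 0.00087). Junb (-1.84 ± 0.84, adjusted p = 0.197) and Klf4 (0.70 ± 0.28, adjusted p = 0.14) of this list were not called.

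Markers of other ovarian cells were measured beside these results. Granulosa and cumulus markers summed to 554.8 to 571.5 CPM in Mfn1&2-/- pools and 508.1 to 606.5 CPM in Mfn2-/- pools, with 14 of 22 markers measured and 1 called. Of the defining granulosa markers, Fshr averaged 0.465 ± 0.413 CPM in Mfn1&2-/- pools and 1.98 ± 1.27 CPM in Mfn2-/- pools and Inhba 1.61 ± 0.325 CPM in Mfn1&2-/- pools and 0.496 ± 0.514 CPM in Mfn2-/- pools. The marker called was Kitl, the Kit ligand of granulosa cells, at 3.96, 3.35 and 4.92 CPM in Mfn1&2-/- pools, against 14.8, 9.88 and 13 CPM in Mfn2-/- pools (-1.64 ± 0.29, adjusted p = 0.00741). Inhbb, an inhibin and activin subunit of granulosa cells, was higher without overlap but not called (adjusted p = 0.147). Its averages were 5.99 ± 1.53 CPM in Mfn1&2-/- pools and 2.945 ± 1.09 CPM in Mfn2-/- pools. Of the 14 markers, 3 were higher and 3 lower without overlap, beside 16.1% and 15.5% of all genes. None of the granulosa markers named here makes up most of the sums. Markers of endothelium, blood and immune cells summed to 167.5 to 192.9 CPM in Mfn1&2-/- pools and 148.0 to 155.4 CPM in Mfn2-/- pools. These sums did not overlap. Of this list 5 of 17 markers were measured and 4 tested. Pecam1, which makes up most of the sum, averaged 137 ± 8.95 CPM in Mfn1&2-/- pools and 109 ± 1.5 CPM in Mfn2-/- pools. It lay at the threshold: it was not called in the edgeR fit of 6 libraries (0.32 ± 0.09, adjusted p = 0.0508), which called 0 of the 4, and was called higher with RLE scaling (adjusted p = 0.0489), the 5 CPM filter (0.0419), all 12 libraries (0.0482) and DESeq2 (0.0238). Tie1 averaged 0.0658 ± 0.114 CPM in Mfn1&2-/- pools and 0.0277 ± 0.0479 CPM in Mfn2-/- pools. The unadjusted p was below 0.05 for Pecam1 and Kdr, which went in opposite directions. Kdr averaged 4.82 ± 2.21 CPM in Mfn1&2-/- pools and 8.98 ± 2.83 CPM in Mfn2-/- pools. It overlapped between the groups and was not called (-0.91 ± 0.40, adjusted p = 0.179). The median log2 fold change of the 4 tested was -0.05. Theca and stroma markers were 1 of 12 measured, Ptch1, at 2.69 to 7.27 CPM in Mfn1&2-/- pools and 1.53 to 3.62 CPM in Mfn2-/- pools.

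Whether loss of Mfn1 acts differently without and with Mfn2 was tested as an interaction in a fit of all 12 libraries: the log2 difference of Mfn1&2-/- over Mfn2-/- oocytes minus that of Mfn1-/- over WT oocytes. It was called for 470 of 11385 genes (4.13%), 333 positive (2.92%) and 137 negative (1.2%). Leaving out Mfn1&2-/- replicate 2 gave 228 calls, Mfn2-/- replicate 2 gave 160 and Mfn2-/- replicate 3 gave 211. Leaving out Mfn1-/- replicate 1 gave 168 calls, WT replicate 2 gave 250 and WT replicate 3 gave 199. Of the interactions called, 70.9% were positive, and 46.3% when libraries were scaled by total count, a scaling that moved the median of all genes to -0.12. In oocytes with Mfn2, 26 of 11385 genes (0.228%) were called in Mfn1-/- against WT in the same fit. That count was 4, 3 and 51 when Mfn1-/- replicate 1, 2 or 3 was left out, and 42, 4 and 13 when WT replicate 1, 2 or 3 was. WT replicate 3 stood apart: its granulosa and cumulus markers summed to 1025 CPM, against 594.2 and 601 CPM in the other WT pools and 552.3 to 570.4 CPM in Mfn1-/- pools. Inhbb stood at 4.47, 10.6 and 155 CPM in WT pools. The part of these markers in the Mfn1-/- against WT values and in the interactions was not tested.

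The interaction was 6.25 ± 0.48 (adjusted p = 8.66e-06) on the log2 scale for Cdc5l, 6.80 ± 0.86 (adjusted p = 0.000844) for Pnpla3 and 8.93 ± 1.02 (adjusted p = 0.000319) for Stk32a. It was -5.28 ± 0.58 (adjusted p = 0.00026) for Glt25d2, -4.48 ± 0.72 (adjusted p = 0.00436) for Ublcp1 and -3.63 ± 0.51 (adjusted p = 0.00178) for Homer2. Each of these 6 genes differed more than 8-fold between Mfn1&2-/- and Mfn2-/- oocytes, and none was called in Mfn1-/- against WT. Stk32a was near the limit of 3 counts in Mfn1-/- pools, so the size of its interaction depends on few reads. That size ran from 8.27 to 13.19 without 1 library. Ugcg (2.85 ± 0.38, adjusted p = 0.00107), Rpl37 (1.72 ± 0.18, adjusted p = 0.000133), Cox5b (1.39 ± 0.18, adjusted p = 0.00107), Ccdc90a (1.21 ± 0.21, adjusted p = 0.00696) and Cd9 (-1.73 ± 0.25, adjusted p = 0.00244) passed the same interaction test. These genes were picked from those described above. Others described did not pass it, among them Hspa5 (0.06 ± 0.18, adjusted p = 0.872), Dppa3 (-0.06 ± 0.12, adjusted p = 0.817) and Mff (-0.16 ± 0.16, adjusted p = 0.623). Of the 1082 genes called in Mfn1&2-/- over Mfn2-/- oocytes, 360 (33.3%) had a called interaction, against 4.13% of all genes. Both tests use the same Mfn1&2-/- and Mfn2-/- libraries, so this overlap is partly built in and adds no separate support. For Rpl37, Cox5b, Atp5b and Ccdc90a the Mfn2-/- mean was the lowest of the 4 groups: Ccdc90a averaged 110.1 ± 25.5 CPM in Mfn1&2-/- pools and 51.1 ± 1.29 CPM in Mfn2-/- pools, beside 100.4 ± 12.5 CPM in Mfn1-/- pools and 108 ± 3.49 CPM in WT pools (SD, n = 3). For Nfam1 the interaction was 10.24 ± 2.74 (adjusted p = 0.0536), which missed the threshold, with 0 counts in all Mfn1-/- libraries.

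**Figure D5:**
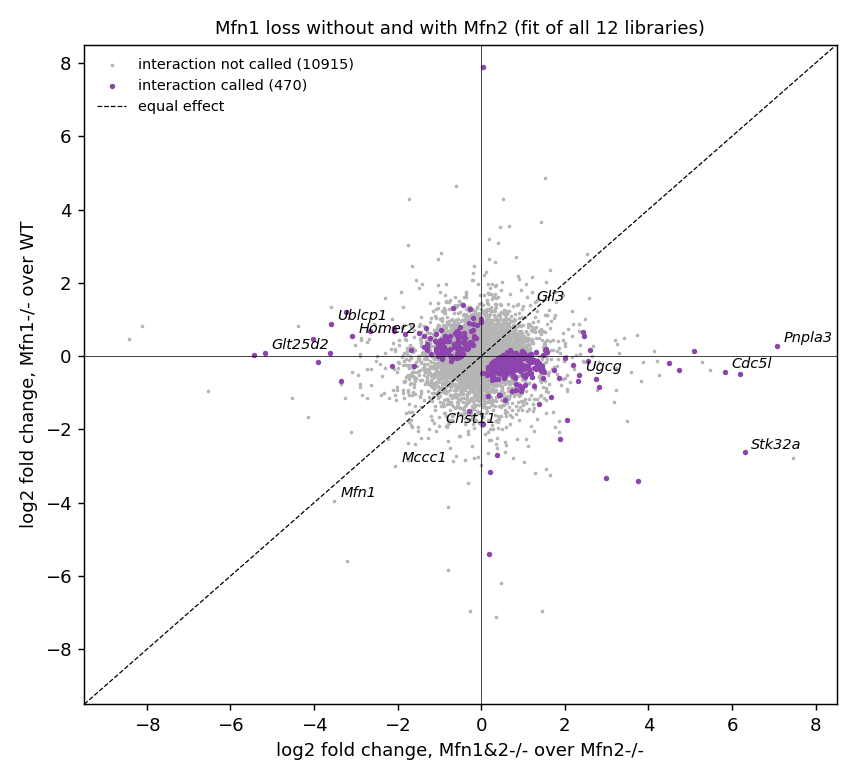
Log2 fold change of Mfn1&2-/- over Mfn2-/- oocytes (horizontal) against that of Mfn1-/- over WT oocytes (vertical) for 11385 genes in the fit of all 12 libraries; purple points are the 470 genes with a called interaction. Mfn1, Mccc1 and Gli3 lie near the dashed line of equal effect, and Cdc5l, Pnpla3, Stk32a, Glt25d2, Ublcp1 and Homer2 lie far from it.

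Apart from Mfn1, 5 genes were called with the same sign in Mfn1&2-/- over Mfn2-/- and in Mfn1-/- over WT oocytes, comparisons that share no library. Of the 1082 genes called here, 500 (46.2%) had the same sign in Mfn1-/- over WT, against 49.3% of all genes tested. The median log2 fold change in Mfn1-/- over WT was -0.05 for genes called higher here and -0.04 for those called lower. Of 25 genes called in Mfn1-/- against WT and tested here, 16 had the same sign, against 49.3% of all genes tested, and 5 were called (20%), against 9.54% of all genes. The 5 are 0.463% of the 1081 other genes called here. They were Gli3, Chst11, Plek, Heatr5b and Mccc1, named after their values were seen. Gli3, a transcription factor of Hedgehog signalling, stood at 357, 545 and 465 CPM in Mfn1&2-/- pools, against 169.5, 202 and 236 CPM in Mfn2-/- pools (1.16 ± 0.16, adjusted p = 0.00243), and averaged 354 ± 41.6 CPM in Mfn1-/- pools and 135 ± 52.2 CPM in WT pools (SD, n = 3). Chst11, a chondroitin sulfotransferase, stood at 26.9, 25.2 and 26.9 CPM in Mfn1&2-/- pools, against 52.3, 47.4 and 59.7 CPM in Mfn2-/- pools (-1.02 ± 0.14, adjusted p = 0.00265), and averaged 9.41 ± 3.48 CPM in Mfn1-/- pools and 35.5 ± 8.92 CPM in WT pools (SD, n = 3). Mccc1, a subunit of the mitochondrial enzyme of leucine breakdown, stood at 1.09, 5 and 3.41 CPM in Mfn1&2-/- pools, against 19.6, 11.2 and 9.17 CPM in Mfn2-/- pools (-2.07 ± 0.49, adjusted p = 0.0249), and averaged 1.65 ± 0.591 CPM in Mfn1-/- pools and 13.3 ± 3.13 CPM in WT pools (SD, n = 3). Gli3 was thus higher, and Chst11 and Mccc1 lower, in the oocytes without Mfn1 on both backgrounds; the call on Mccc1 was lost without Mfn1&2-/- replicate 3, Mfn2-/- replicate 1 or Mfn2-/- replicate 2 (adjusted p up to 0.091). Plek and Heatr5b were lower as well, at -1.52 ± 0.27, adjusted p = 0.0071 for Plek and -0.46 ± 0.09, adjusted p = 0.00914 for Heatr5b. In Mfn1-/- against WT, the call on Chst11 held without each of the 6 libraries (adjusted p up to 0.0361), and the other 4 genes each lost theirs in 3 or 4 of these 6 fits. Without Mfn1-/- replicate 1 or 2 all 4 were lost (adjusted p up to 0.095); omitting WT replicate 2 ended the calls on Gli3, Plek and Mccc1 (up to 0.103), and omitting WT replicate 3 those on Gli3, Plek and Heatr5b (up to 0.075).

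Mccc1 lies near Mfn1 on chromosome 3. Of 38 genes tested within 5 Mb of Mfn1 10 were called (26.3%, 6 higher), and of 55 within 10 Mb 12 were called (21.8%, 6 higher), against 9.54% of all genes. Spry1, an antagonist of receptor tyrosine kinase signalling, stood at 25.1, 34.5 and 25.7 CPM in Mfn1&2-/- pools, against 60.7, 59.5 and 56.8 CPM in Mfn2-/- pools (-1.06 ± 0.16, adjusted p = 0.00331). Actl6a, an actin-related subunit of chromatin remodellers, stood at 32, 33.5 and 39.1 CPM in Mfn1&2-/- pools, against 59.3, 66.1 and 65.5 CPM in Mfn2-/- pools (-0.88 ± 0.13, adjusted p = 0.00396), and the antisense gene Mrpl47 overlaps it. Both were lower without overlap, as was Ect2, a regulator of cytokinesis (-0.44 ± 0.09, adjusted p = 0.0114). Pld1, a phospholipase D, averaged 1142 ± 47.5 CPM in Mfn1&2-/- pools and 865 ± 94.3 CPM in Mfn2-/- pools and was higher (0.39 ± 0.09, adjusted p = 0.0248), a call lost without Mfn1&2-/- replicate 2 (adjusted p = 0.0949), Mfn2-/- replicate 2 (adjusted p = 0.0771) or Mfn2-/- replicate 3 (adjusted p = 0.106). The part that sequence linked to the targeted allele has in this share was not tested.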

How the data were processed

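Total RNA of pools of denuded GV oocytes was depleted of ribosomal RNA, made into libraries with a stranded low-input kit and sequenced as 100 bp paired reads, per the labels' protocols. Tools named in the submitters' processing notes are STAR 2.7.0a, FastQC 0.11.7 and edgeR, with the mm10 genome. The authors deposited raw counts per gene, and a signal table of scaled counts that equals the TMM-scaled CPM computed here (relative difference at most 5.1e-15). What was not given in the sources used here is the annotation, the use of strand and the counting of multiply matched reads.

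Counts of the 6 libraries were scaled by TMM, filtered with filterByExpr (43 of 11385 genes left out) and fitted with edgeR 4.0.16 (glmQLFit, glmQLFTest; R 4.3.3; 4 residual degrees of freedom). The interaction and the Mfn1-/- against WT values used all 12 libraries (8 residual degrees of freedom). An adjusted p (Benjamini-Hochberg over all genes tested) below 0.05 was called a change. Values after ± are SD for CPM and, for log2 fold changes, approximate standard errors (size of the change over the root of the F statistic). CPM are TMM-scaled over 12 libraries. The interaction uses the same Mfn1&2-/- and Mfn2-/- libraries as the fit of 6 libraries.

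Named genes were Mfn1, Mfn2, the 12 called genes of largest change in each direction (no overlap, and 5 CPM or more on average in the higher group), the 5 most abundant called genes in each direction, up to 3 members of each of 28 lists by smallest p, up to 4 called genes within 10 Mb of Mfn1, and the 5 largest interactions in each direction. Predicted genes and symbols turned into dates are counted but not named, and not every gene so chosen is described. The comparison, its gene lists and the naming rule were chosen with earlier results of these data known. Positions are GRCm38 gene spans from GENCODE vM21, in which 11292 symbols (99.2%) were located. The fit was tested on simulated counts of 11274 genes, of which 66 or 67 were changed by each fold. It recovered 37.3% of 1.5-fold, 68.7% of 2-fold and 98.5% of 4-fold changes, and 6.85% of its calls were false. For the interaction (11326 genes) it recovered 10.4%, 34.3% and 78.8%, and 5.75% of the calls were false. The changed genes all had 5 CPM or more and were fewer than the genes called in the data, where recovery may differ. Alternatives were RLE scaling (DESeq2 1.42.0 size factors), total counts alone, the DESeq2 Wald test, limma-voom (limma 3.58.1), a 5 CPM filter in 3 libraries or none, a block for replicate number, a 1.5-fold threshold (glmTreat), all 12 libraries, and each library left out.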

Additional observations from a re-analysis of the deposited data

Results flagged for a closer look

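The following genes were listed because the effect of Mfn1 loss without Mfn2 (Mfn1&2-/- over Mfn2-/-) differed from its effect with Mfn2 (Mfn1-/- over WT) by edgeR's interaction test over 12 libraries; values are log2 differences with approximate standard errors. Positive interactions were 8.93 ± 1.02 (adjusted p = 0.000319) for Stk32a, 6.80 ± 0.86 (adjusted p = 0.000844) for Pnpla3 and 6.25 ± 0.48 (adjusted p = 8.66e-06) for Cdc5l, and negative ones -5.28 ± 0.58 (adjusted p = 0.00026) for Glt25d2, -4.48 ± 0.72 (adjusted p = 0.00436) for Ublcp1 and -3.63 ± 0.51 (adjusted p = 0.00178) for Homer2. These 6 kept their call without each of the 12 libraries. The size for Stk32a depends on few reads in Mfn1-/- pools and ran from 8.27 to 13.19 without 1 library.

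The other 4 depended on single libraries and on the method. Pknox2, a homeobox transcription factor, had an interaction of 6.67 ± 1.44 (adjusted p = 0.0209). It stood at 0, 13.9 and 30.1 CPM in Mfn1&2-/- pools, against 0, 0.498 and 0.134 CPM in Mfn2-/- pools, and averaged 31.9 ± 6.49 CPM in Mfn1-/- pools and 44.4 ± 7.96 CPM in WT pools. The Mfn1&2-/- pools ran from 0 to over 30 CPM, and the call was lost without Mfn2-/- replicate 3 or Mfn1-/- replicate 1 (adjusted p up to 0.0603). Nap1l5, a nucleosome assembly protein gene, had an interaction of 6.30 ± 1.38 (adjusted p = 0.0217). It stood at 3.62, 1.64 and 2.65 CPM in Mfn1&2-/- pools, against 0.466, 0 and 0.469 CPM in Mfn2-/- pools, and 1 WT pool held 38.8 CPM. Its call was lost without Mfn2-/- replicate 2, Mfn1-/- replicate 1 or WT replicate 3 (adjusted p up to 0.0781).

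Tex15, a factor of germ cell meiosis, had an interaction of -3.73 ± 0.94 (adjusted p = 0.0402). It stood at 9.18, 7.43 and 9.16 CPM in Mfn1&2-/- pools, against 142, 8.47 and 232 CPM in Mfn2-/- pools, so that 1 Mfn2-/- pool lay among the Mfn1&2-/- pools. Its call was lost in 11 of the 12 fits without 1 library (adjusted p up to 0.0997), the exception being the fit without Mfn2-/- replicate 2. Nlrp5-ps had an interaction of -3.35 ± 0.87 (adjusted p = 0.0446), lost in 10 of the 12 fits (adjusted p up to 0.128). The interactions of Pknox2, Nap1l5 and Tex15 were also lost under limma-voom. Those of Tex15 and Nlrp5-ps were also lost with a block for replicate number.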

How the results depend on the processing

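The count of 1082 genes stayed within 1.5 times under RLE scaling (1056), total counts alone (1149), DESeq2 (1591), limma-voom (1145), no filter (1087), a 5 CPM filter (1197) and all 12 libraries (1163, with 957 genes shared). A 1.5-fold threshold left 61 genes, 27 interactions and 6 list members. Without 1 library the ranges were 485 to 1183 genes, 160 to 464 interactions and 56 to 130 list members, and 3 to 51 genes for Mfn1-/- against WT, chosen as an alternative after seeing the data (26 with all libraries). DESeq2 called 903 interactions, against 470 in the edgeR fit.

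Whether the replicate numbers pair the pools could not be settled with 3 pools a group. Deviations of same-numbered Mfn1&2-/- and Mfn2-/- libraries correlated at 0.199, 0.135 and -0.022. For Mfn1&2-/- replicates 1 and 2 the same-numbered Mfn2-/- library correlated best. Mfn1&2-/- replicate 3 correlated best with Mfn2-/- replicate 2 (0.211). With the replicate block 1239 genes, 276 interactions and 125 list members were called. Mfn2, not called in any fit, changed sign without Mfn2-/- replicate 3 (log2 fold change 0.10, adjusted p = 0.883; -0.17 to 0.10 without 1 library). Of 95 calls on named genes, 58 held without each library, 85 under every setting other than the 1.5-fold threshold, and 21 under that threshold. The causes were not tested. With 3 pools a group, changes under 2-fold were recovered in part only, so a gene that was not called may still differ.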

Other observations

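A few genes stood high in only 1 of the 3 pools of a genotype. In Mfn1&2-/- pools 6 genes, and in Mfn2-/- pools 3 genes, had over 90% of their summed CPM in 1 library, and none of them was called. Coro2b, a coronin of the actin cytoskeleton, stood at 135, 1.38 and 1.51 CPM in Mfn1&2-/- pools, against 97.1, 44.9 and 48.3 CPM in Mfn2-/- pools. Manba, the lysosomal beta-mannosidase, stood at 0.253, 0.263 and 19.4 CPM in Mfn1&2-/- pools, against 27.4, 57.5 and 60.7 CPM in Mfn2-/- pools. Pde6b, a phosphodiesterase subunit known from photoreceptors, stood at 36.9, 0.329 and 1.14 CPM in Mfn1&2-/- pools and 0, 0.996 and 0.0669 CPM in Mfn2-/- pools, beside 41.3 ± 6.71 CPM in Mfn1-/- pools and 45.8 ± 13.9 CPM in WT pools. Replicate 1 held the high value for 3 of the Mfn1&2-/- genes and for all 3 of the Mfn2-/- genes. Whether these levels come from single animals was not tested.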
